A study of Mus musculus with 4 samples.

Results

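The epidermal differentiation complex was taken as the 58 protein-coding genes of mouse chromosome 3 whose symbol starts with S100a, Sprr or Lce, or is Lor, Ivl, Flg, Flg2, Hrnr, Rptn, Crnn or Tchh, of 21938 protein-coding genes in all. They comprised 14 S100a genes, 15 Sprr genes, 21 Lce genes, the 6 S100-fused type genes (Crnn, Flg, Flg2, Hrnr, Rptn and Tchh) and the pair Lor and Ivl. A control peak or an AP-2-dependent region was assigned to the complex when its centre was at most 50 kb from the start of a member's principal transcript. This rule took 64 of 65467 control peaks and 3 of 3103 AP-2-dependent regions. The rule uses gene names and positions only.

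ATAC-seq, in which a transposase cuts and tags accessible DNA, was performed at E11.5 on surface ectoderm separated from the mouse facial prominences. The 2 control libraries came from littermates that lacked the Crect transgene and carried 1 floxed and 1 wild-type allele of each gene (Tfap2a flox/+; Tfap2b flox/+). The 2 EDKO libraries came from Crect; Tfap2a flox/flox; Tfap2b flox/flox embryos, so that floxed alleles were present in both groups. Cre in Crect is driven by an intronic enhancer of Tfap2a itself, and other AP-2 genes such as Tfap2c were left intact. Control peaks are the nucleosome-free regions of both control libraries in a single call, and AP-2-dependent regions come from a call of the control libraries with the EDKO libraries as background. Each call combined its libraries, so a peak has no value per library, no error between replicates and no read count, and no test over embryos could be made. Of the tissue markers, 12 of 12 surface ectoderm genes had a control peak within 1 kb of their start site, as did 9 of 10 mesenchyme genes, 7 of 10 neuronal genes and 2 of 10 endothelial and blood genes. The part of non-ectodermal cells in the peaks below was not tested.

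The complex encodes proteins made late in the life of a keratinocyte. Loricrin (Lor), involucrin (Ivl), the small proline-rich proteins (Sprr) and the late cornified envelope proteins (Lce) are cross-linked by transglutaminases into the envelope that replaces the plasma membrane of dead squames. Profilaggrin (Flg) and its relatives join an S100-type calcium-binding part to long repeats. The product of Flg bundles keratin filaments, and trichohyalin (Tchh) does so in the hair follicle. The S100 proteins are small calcium-binding proteins, several of which are made in many tissues. At E11.5 the facial surface ectoderm has not yet stratified and consists of a basal layer under a thin periderm. AP-2 factors, encoded by the Tfap2 genes, bind palindromes of the form GCCNNNGGC and are known to act in the epidermis.

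The sequences below are those on which the account turns, read from GRCm38. The 3 AP-2-dependent regions are given on the plus strand. Capitals mark an AP-2 string, GCCNNNGGC or its relative with a spacer 1 base longer, in the first and second of them. In the region near S100a11, which held no exact match to either, capitals mark GGAATG, a string bound by TEAD factors. Near matches to the AP-2 strings were not counted. The first region is shown whole and the others as the 300 bases around their summits.
Region in S100a16, chr3:90541661-90541904: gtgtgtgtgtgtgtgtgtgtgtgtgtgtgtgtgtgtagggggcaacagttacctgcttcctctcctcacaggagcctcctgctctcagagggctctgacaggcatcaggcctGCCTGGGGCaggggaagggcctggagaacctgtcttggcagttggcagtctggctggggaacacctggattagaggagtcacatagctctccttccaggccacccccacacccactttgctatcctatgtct
Region between Hrnr and Rptn, chr3:93357231-93357530: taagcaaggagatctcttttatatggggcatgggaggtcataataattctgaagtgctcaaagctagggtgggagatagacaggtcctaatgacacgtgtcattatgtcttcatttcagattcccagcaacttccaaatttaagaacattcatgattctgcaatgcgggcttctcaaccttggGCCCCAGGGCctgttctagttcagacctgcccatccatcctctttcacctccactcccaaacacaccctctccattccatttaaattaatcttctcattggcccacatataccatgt
Region downstream of S100a11, chr3:93530537-93530836: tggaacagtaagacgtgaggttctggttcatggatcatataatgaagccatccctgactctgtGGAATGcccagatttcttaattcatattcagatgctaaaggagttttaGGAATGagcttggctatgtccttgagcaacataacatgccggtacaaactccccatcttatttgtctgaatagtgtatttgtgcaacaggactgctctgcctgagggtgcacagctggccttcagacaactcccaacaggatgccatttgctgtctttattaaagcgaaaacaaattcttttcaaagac
The S100a16 region opened with a run of GT repeats and its string GCCTGGGGC started at base 113. The string GCCCCAGGGC started at base 184 of the stretch between Hrnr and Rptn, and the GGAATG strings at bases 64 and 112 of the stretch beside S100a11.

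Promoters are printed on the strand of the gene, from 120 bases before the start site to 20 bases after it. They are single examples of the letters around the start and do not stand for their families. Capitals mark CG in the promoters of S100a11 and S100a10, the AP-1 string TGANTCA and the TATA box string TATAAA in those of Sprr1a, Lor and Ivl, and ATAAAA in that of Lce1b. The S100a11 stretch also held the AP-1 string, which is left in lower case there.
S100a11, chr3:93520368-93520507: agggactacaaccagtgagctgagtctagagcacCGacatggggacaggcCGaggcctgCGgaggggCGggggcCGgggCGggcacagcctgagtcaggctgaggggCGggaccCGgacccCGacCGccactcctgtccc
S100a10, chr3:93554960-93555099: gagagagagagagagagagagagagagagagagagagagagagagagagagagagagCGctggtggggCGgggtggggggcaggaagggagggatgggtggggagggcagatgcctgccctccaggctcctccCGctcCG
Sprr1a, chr3:92485876-92486015, minus strand: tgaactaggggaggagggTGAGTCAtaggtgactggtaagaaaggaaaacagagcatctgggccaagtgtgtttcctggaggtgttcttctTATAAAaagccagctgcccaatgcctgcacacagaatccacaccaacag
Lor, chr3:92083123-92083262, minus strand: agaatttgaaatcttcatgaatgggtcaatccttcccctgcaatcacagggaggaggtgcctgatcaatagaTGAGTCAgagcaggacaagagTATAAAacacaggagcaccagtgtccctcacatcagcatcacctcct
Ivl, chr3:92573716-92573855, minus strand: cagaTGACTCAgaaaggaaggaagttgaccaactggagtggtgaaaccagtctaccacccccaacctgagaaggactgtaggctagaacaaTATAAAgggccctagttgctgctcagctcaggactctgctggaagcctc
Lce1b, chr3:92656907-92657046, minus strand: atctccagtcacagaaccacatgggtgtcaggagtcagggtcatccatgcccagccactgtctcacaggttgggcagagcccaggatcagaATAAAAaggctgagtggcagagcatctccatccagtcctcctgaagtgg
The S100a11 stretch held 10 CG and the S100a10 stretch 4, while those of Sprr1a, Lor, Ivl and Lce1b held 0. TATAAA started at base 92 in Sprr1a and Ivl and at base 94 in Lor, and ATAAAA at base 92 in Lce1b.

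A last sequence is shown because it stands in 3 control peaks, upstream of Sprr2a1 (chr3:92215500-92215548), Sprr2a2 (chr3:92250312-92250360) and Sprr2a3 (chr3:92284997-92285045), with the same 49 letters in each. Capitals mark the 2 AP-2 strings that each copy held.
Upstream of Sprr2a1, Sprr2a2 and Sprr2a3: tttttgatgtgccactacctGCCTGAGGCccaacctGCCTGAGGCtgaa

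Most genes of the complex had no nucleosome-free region at their start site in the control ectoderm. A control peak was centred within 1 kb of the start of 11 of the 58 members, or 19.0% (95% Wilson interval 10.9 to 30.9), where 62.8% of all protein-coding genes had one. The 11 were S100a1, S100a13, S100a16, S100a3, S100a6, S100a11, S100a10, Sprr2a1, Sprr2a2, Sprr1a and Crnn. S100a genes made up 7 of them. Outside the S100a family the share was 4 of 44, or 9.09% (3.59 to 21.2). The intervals cover counting error only, and tandem genes share ancestry and neighbourhood, so they are not independent draws.

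Lce genes were at the low end. None of the 21 had a control peak within 1 kb, which allows a share of up to 15.5% at the upper Wilson limit. Of 15 Sprr genes 3 had one (7.05 to 45.2%), of 6 S100-fused type genes 1 (16.7%, 3.01 to 56.4) and of Lor and Ivl none. The 17 other protein-coding genes that lie between S100a1 and S100a10 on the chromosome, among them Pglyrp3, Kprp and Crct1, also had 0. As families for comparison, 2 of 57 hair keratin-associated protein genes (Krtap, 3.51%) and 6 of 1135 olfactory receptor genes (Olfr, 0.529%) had an open start site, against 91 of 102 ribosomal protein genes (Rpl and Rps, 89.2%).

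**Figure D1:**
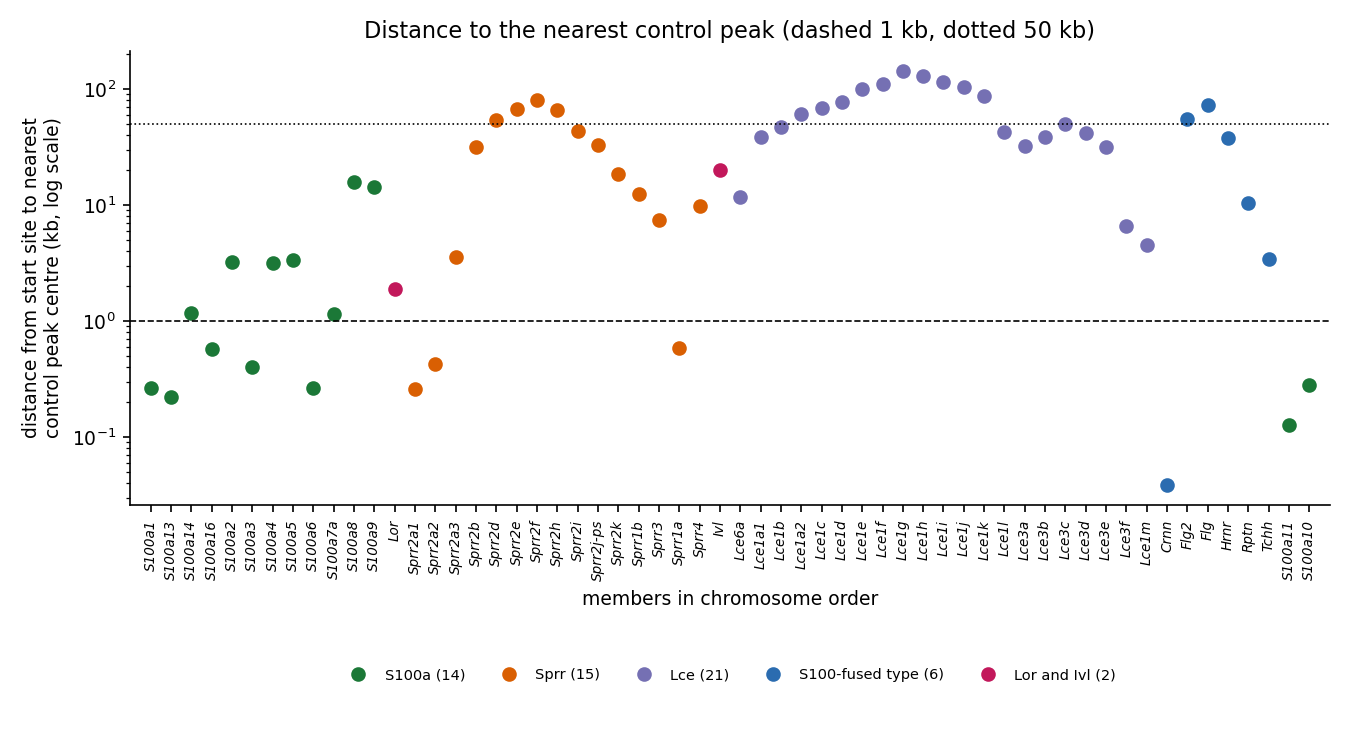
Distance from each member's start site to the centre of the nearest control peak, in kb on a log scale, with the 58 members in chromosome order and coloured by family. The 11 points under the dashed line at 1 kb are 7 S100a genes, Sprr2a1, Sprr2a2, Sprr1a and Crnn, and the Lce points rise to 142 kb at Lce1g.

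At 50 kb the families still differed. At least 1 control peak lay within that distance of 41 of 58 members, or 70.7% (57.99 to 80.8), beside 87.2% of all genes. The number per member had a median of 2 and ran from 0 to 13. All 14 S100a genes had between 2 and 8, with a median of 8. The peaks counted for S100a1 and S100a13 include 4 at the start sites of the non-members Npr1, Ilf2, Snapin and Chtop. Sprr genes ranged from 0 to 13, where the highest value belonged to Sprr2a2, and Lce genes from 0 to 4 with a median of 0. The 17 members without any were 11 Lce genes, Sprr2d, Sprr2e, Sprr2f, Sprr2h, Flg and Flg2. The median distance to the nearest peak was 19.4 kb for the members and 0.38 kb for all genes. By family it was 0.867 kb for S100a, 18.7 kb for Sprr, 24.0 kb for the S100-fused type and 50.3 kb for Lce.

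Lor, Ivl and Flg, whose products are major parts of the cornified cell, had no peak at their promoters. The nearest peak to Lor was centred 1.89 kb downstream of the start, inside the gene. For Ivl it lay 20.2 kb away and for Flg 73.1 kb. The principal Flg transcript of the annotation starts within the repeats of the gene. From the RefSeq start of Flg the distance was 83.8 kb, so both starts were far from a peak. Lce1g, which encodes a late cornified envelope protein, was the farthest member at 142 kb.

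The peaks were unevenly spread along the complex. The merged 50 kb windows of the members held 35.7 control peaks per Mb over 1.79 Mb, beside 40.0 per Mb in the same windows around all protein-coding genes, 21.5 on chromosome 3 and 24.0 over the 21 chromosomes. By family the windows held 62.5 per Mb for S100a, 44.2 for Sprr, 25.2 for the S100-fused type and 12.1 for Lce. The S100a value includes the 4 peaks at the starts of non-members named above. Of the 17 peaks in the Sprr windows, 13 lay in the duplicated Sprr2a block described below, and another, near Sprr1a, was also multi-copy. All 6 peaks in the Lce windows were single-copy. The higher density of Sprr than of Lce thus rested on multi-copy peaks. Between the start sites of Lor and Sprr2a3 the density was 87.6 per Mb, and between those of S100a11 and S100a10 it was 86.7. From Ivl to Lce1m, an interval of 0.445 Mb that spans the Lce genes, it was 8.98.

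Long stretches without any control peak covered most of the envelope genes. The longest ran for 284 kb (chr3:92610087-92894095) and held the start sites of 14 Lce genes, from Lce6a to Lce1l, and 17 protein-coding genes in all. It was longer than 98.1% of the 65277 gaps between neighbouring control peaks, whose median was 13.0 kb, and 40 gaps of the genome held as many genes. The next, of 212 kb, held Flg2, Flg and Hrnr. A gap of 166 kb contained the starts of 10 Sprr genes from Sprr2a3 to Sprr1b, and one of 104 kb contained Lce3a to Lce3f. Together these 4 gaps held 33 of the 58 start sites and 20 of the 21 Lce genes.

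**Figure D2:**
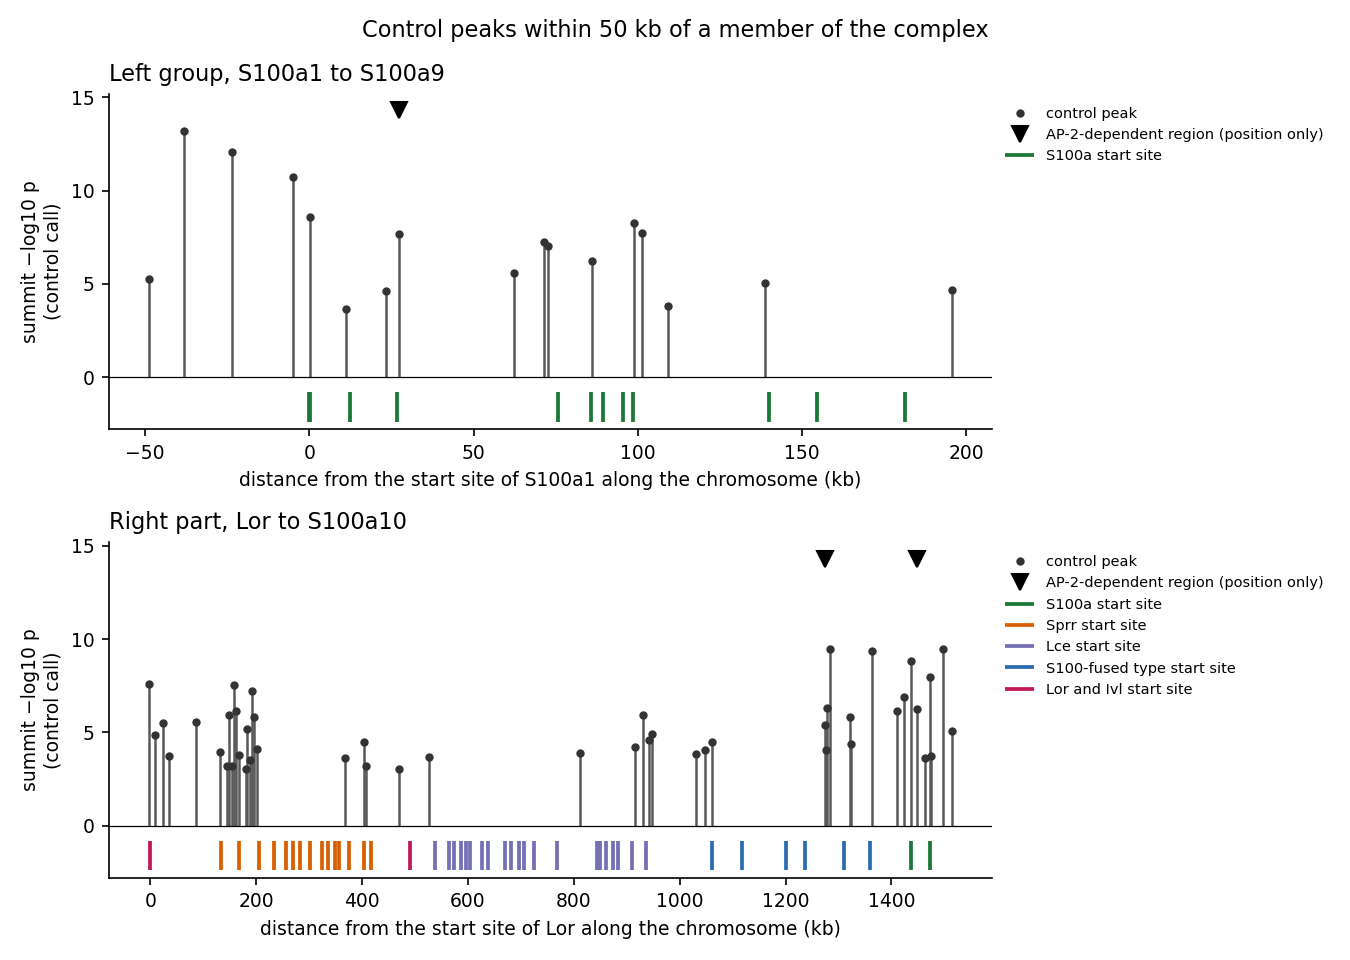
Control peaks within 50 kb of a member, with the summit −log10 p of the control call on the vertical axis and distance in kb from the start of S100a1 (upper panel) or Lor (lower panel) on the horizontal axis. Ticks below zero mark the members' start sites by family and triangles the 3 AP-2-dependent regions, at their position only, and 14 of the Lce ticks stand under the 284 kb without a peak.

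At the S100a genes the open start sites had summits in the upper part of the list. S100a1 and S100a13 lie head to head and shared 1 peak of 1083 bp with a summit −log10 p of 8.57, so that the 11 open members rested on 10 peaks. The value was 8.81 at S100a11, 8.27 at S100a6, 7.95 at S100a10, 7.66 at S100a16 and 6.25 at S100a3. S100a11 and S100a10, which lie together at the far end of the complex and encode widely made partners of annexins, had peaks of 1260 and 1951 bp. Those of Sprr1a (4.50), Crnn (4.48), Sprr2a1 (3.94) and Sprr2a2 (3.78) were the lowest of the set, and no S100a value fell in their range. The median over the 10 peaks was 6.96, beside 9.22 for the control peaks at start sites of the whole genome. A −log10 p grows with read depth as well as with accessibility, and these values compare peaks of the same call only.

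The remaining S100a genes had their nearest peak farther out. It was centred 1.16 kb from the start of S100a7a and 1.17 kb from that of S100a14, just outside the limit. Just inside it were Sprr1a at 0.584 kb and S100a16 at 0.574 kb. S100a8 and S100a9, the subunits of calprotectin, lay 15.8 and 14.4 kb from a peak. S100a2, S100a4 and S100a5 lay between 3.16 and 3.34 kb.

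Among the 64 peaks the 8 with the largest summit −log10 p were mainly not at envelope genes. The first 3 stood at the start sites of non-members beside S100a1, namely Ilf2 (13.2), Snapin (12.1) and Chtop (10.7). The next, both intergenic, lay 26.0 kb downstream of S100a10 (chr3:93580642-93581442) and 26.2 kb upstream of Rptn (chr3:93367062-93367935), each with 9.48. A peak in the Tchh gene followed with 9.34, and the start sites of S100a11 and of S100a1 with S100a13 completed the set. Over all 64 the median was 5.24, near the 5.10 of all 65467 control peaks. By the annotation of GENCODE, 42 of the 64 summits were intergenic, 14 intronic, 4 in coding exons, 3 in untranslated exons and 1 in an exon of a non-coding transcript.

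The peaks in Lor and Tchh lay in coding sequence and not at a promoter. That of Lor (chr3:92080350-92082163) covered 1814 bp of exon 2, with 80.4% coding bases, a GC content of 68.3% and a summit −log10 p of 7.61. That of Tchh (chr3:93443429-93448101) covered 4673 bp of exon 2, with 98.9% coding bases and 60.6% GC, and was wider than 99.8% of all control peaks. The median width of the list was 560 bp and its median GC content 51.8%. Both exons encode repeats, and 21.4% and 27.4% of the 12-base words of the Lor and Tchh peaks occurred more than once within the peak. At 31 bases their sequence occurred once in the genome by the median. The part of GC content and of internal repeats in these peaks was not tested.

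The Sprr2a genes stood in a duplicated block, which set how their peaks can be read. Of the 13 control peaks from Sprr2a1 to Sprr2a3, all had a median 31-base copy number of at least 2, and 11 had a partner of at least 80% identity in the block. The partners formed 7 pairs with identities from 85.2% to 97.1%, shifted by about 34.8 kb, or 69.5 kb for the pair of Sprr2a1 and Sprr2a3. The identity is lowered where partners differ in width, so it does not measure sequence divergence between the copies alone. Paired peaks had like values, such as 7.54 and 7.23, 6.16 and 5.83, and 5.95 and 5.20 in summit −log10 p. The alignment placed a read pair at up to 10 positions, so signal from separate copies cannot be told apart and the peaks are not independent. The 49 letters printed for the 3 genes are an example. These 13 peaks were most of the 18 between the start sites of Lor and Sprr2a3. With only the 49 peaks of the 64 that were single-copy, the windows of the members held 27.3 peaks per Mb. The other 2 multi-copy peaks, near Sprr1a and Ivl, had median copy numbers of 26485 and 2875, and the latter was the peak 20.2 kb from Ivl.

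The share of AP-2-dependent peaks in the complex was near that of the whole list. Of the 64 control peaks, 3 overlapped a region by at least 1 base, or 4.69% (1.61 to 12.9), beside 4.48% of all control peaks. By genes, 9 of 58 members had a region within 50 kb, or 15.5% (8.38 to 26.9), beside 11.1% of all genes and 16.04% of those on chromosome 3. The 9 genes shared 3 regions. They were S100a1, S100a13, S100a14, S100a16 and S100a2 for the first, Hrnr and Rptn for the second, and S100a11 and S100a10 for the third. Accordingly 7 of 14 S100a genes had a region nearby, but these rested on 2 regions.

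The first region lay in an intron of S100a16, which encodes a calcium-binding protein, 0.621 kb downstream of its start site. It was 244 bp wide with a summit −log10 p of 3.68 in the comparison call, above 15.0% of the regions. It covered 20.2% of its control peak (chr3:90541131-90542339), whose own summit lay 11 bp away. The rest of that promoter peak was outside the AP-2-dependent call.

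The second region (chr3:93357211-93357588) was intergenic, 37.7 kb downstream of the start of Hrnr and 36.3 kb upstream of that of Rptn, which encodes repetin, an envelope precursor. It was 378 bp wide, had a summit −log10 p of 4.30 and covered 91.5% of its control peak. Hrnr and Rptn themselves had no control peak at their starts, the nearest being 37.6 and 10.3 kb away.

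The third region (chr3:93530357-93531015) was the strongest of the 3. It lay 10.2 kb downstream of the start of S100a11 and 24.4 kb upstream of that of S100a10, in intergenic sequence of 659 bp. It had a summit −log10 p of 5.86 and an area under the curve of 1008, above 80.1% and 86.4% of all regions. It had the same first and last base as its control peak, so that the whole peak was called AP-2-dependent. The promoter peaks of S100a11 and S100a10 on either side overlapped no region. Whether the RNA of any of these genes differed between control and EDKO embryos was not analysed here.

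No AP-2-dependent region lay within 50 kb of an Lce or Sprr gene, Lor or Ivl. The nearest was 338 to 736 kb away from the Lce genes, 857 to 1142 kb from the Sprr genes, 784 kb from Ivl and 1274 kb from Lor. The upper Wilson limits were 15.5% for the 21 Lce genes and 20.4% for the 15 Sprr genes. Both lie above the 11.1% of all genes with a region, so these counts of 0 do not set the families apart. Their windows held only 6 (Lce) and 17 (Sprr) control peaks, and 4.48% of all control peaks overlapped a region. Each of the Sprr2a start peaks, with 2 copies of GCCTGAGGC, was outside the AP-2-dependent list, although these peaks are multi-copy. Of the 64 control peaks 7 held the AP-2 string GCCNNNGGC within 100 bp of the summit, or 10.9% (5.40 to 20.9), beside 14.4% of all control peaks and 22.7% of AP-2-dependent regions. The Sprr2a copies accounted for 3 of the 7, and of the 49 single-copy peaks 3 held it, or 6.12%. A match is a description of letters, not evidence of binding.

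Other strings near the 64 summits were mostly close to the whole list. GGAATG, the TEAD string, was found in 23.4% (14.7 to 35.1) beside 17.9%, the KLF string CCNCNCCC in 34.4% beside 34.9%, the GRHL string AACNGGTT in 3.13% beside 3.09% and the AP-1 string TGANTCA in 7.81% beside 5.80%. The p53 family string was found in 15.6% (8.71 to 26.4) beside 8.68% and the CTCF string in 9.38% (4.37 to 19.0) beside 6.21%. All were read on both strands. Copies in the Sprr2a block accounted for 6 of the 15 summits with the TEAD string and 4 of the 10 with the p53 family string. Among the 49 single-copy peaks the shares were 18.4% (9.98 to 31.4) and 12.2% (5.73 to 24.2), and that of the KLF string was 40.8% (28.2 to 54.8).

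**Figure D3:**
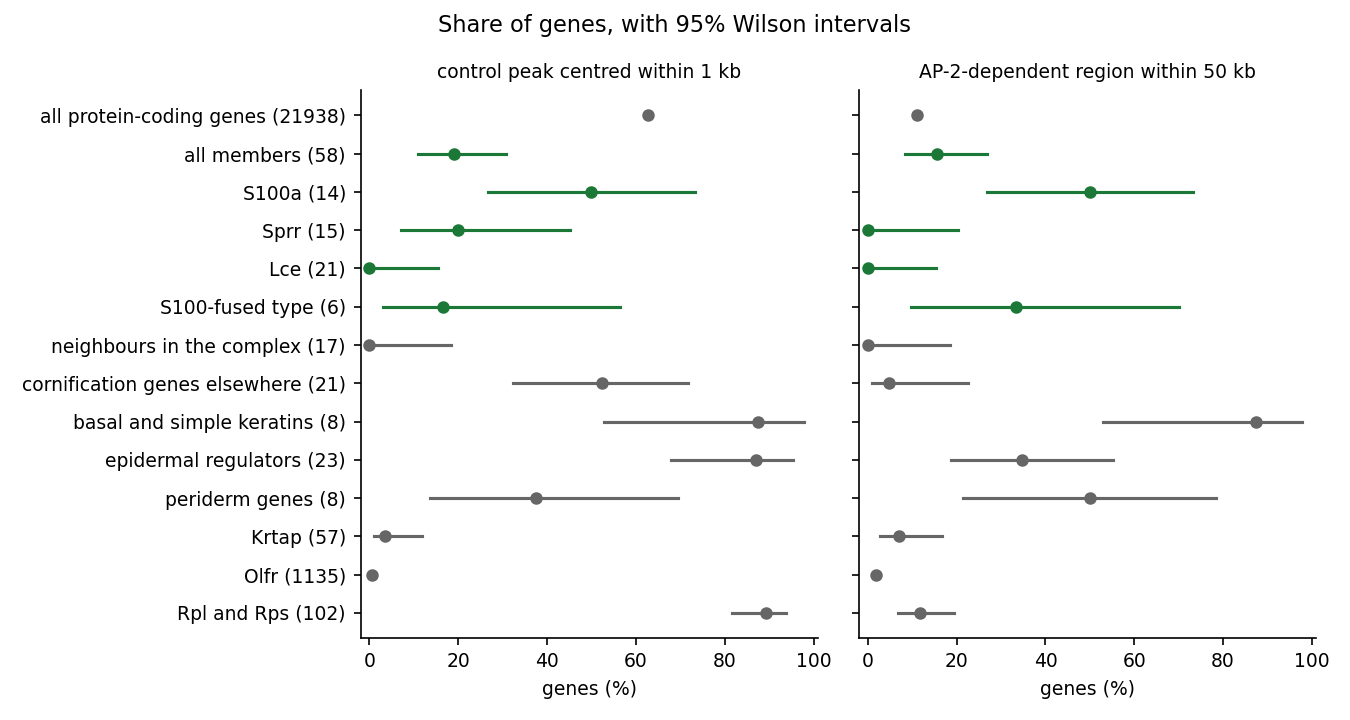
Percentage of genes with a control peak centred within 1 kb of the start site (left) and with an AP-2-dependent region within 50 kb (right), for the members (green) and other gene sets (grey), with gene numbers in brackets and 95% Wilson intervals as bars. On the left the members stand at 19.0% and all genes at 62.8%, and on the right at 15.5% and 11.1%.

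The same counts were made for genes with related roles elsewhere in the genome. Over all protein-coding genes, 62.8% had an open start site and 11.1% a region within 50 kb. Of 8 keratin genes of basal and simple epithelia, 7 had an open start site and 7 (Krt5, Krt14, Krt15, Krt17, Krt8, Krt18 and Krt19) an AP-2-dependent region within 50 kb. Of 23 regulators of epidermal differentiation 20 were open, including Cebpa, Cebpb, Fosl1 and Grhl1, and 8 had a region within 50 kb, among them Tfap2a, Tfap2b, Trp63, Notch1, Grhl3, Hopx and Zfp750. Trp63, the master regulator of the epidermal lineage, had 4 such regions. The 8 include Tfap2a and Tfap2b, whose floxed parts are cut out by Cre in the EDKO ectoderm. Whether the regions counted for these genes fall in the excised DNA was not tested. Of 8 periderm genes 3 were open and 4 (Rhou, Gabrp, Krt13 and Krt6a) had a region. Neighbouring keratin genes shared their nearest region, namely Krt13 with Krt15 and Krt19, Krt6a with Krt5, and Krt8 with Krt18. The keratins in these counts are therefore not independent, also between the keratin and periderm lists. At Rhou 12 of the 13 regions within 50 kb lay in multi-copy sequence, with median copy numbers up to 49.5, and they are not independent. Of 21 cornification genes outside the complex 11 were open (52.4%, 32.4 to 71.7), among them Abca12, Alox12b, Asprv1 and Casp14. Of the same 21 genes 1, Aloxe3, had a region (4.76%, 0.846 to 22.7), and this interval includes the share of all genes. Krt1 and Krt10, the keratins of the suprabasal layer, had their nearest peak at 3.78 and 1.67 kb, and were picked out after their values were seen. These lists were drawn up by hand, and no test was made between them and the complex.

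The promoters of the complex differed in sequence from those of most genes. In the 250 bases before and 50 after the start site, the ratio of observed to expected CpG had a median of 0.0886 in the members and 0.553 in all genes. The medians of the Krtap and Olfr genes, 0.156 and 0.107, were also low. Open S100a promoters had a median of 0.391 (range 0.190 to 0.530, n = 7) and the other S100a promoters 0.105 (0.0612 to 0.367, n = 7), so the groups overlapped. The open promoters of Sprr2a1, Sprr2a2, Sprr1a and Crnn had a median of 0.0304 beside 0.0771 for the members outside S100a without a peak (n = 40). Among all genes the medians were 0.756 with and 0.176 without an open start site. The highest ratio in the complex, 0.657, belonged to Flg and was read within its repeats.

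**Figure D4:**
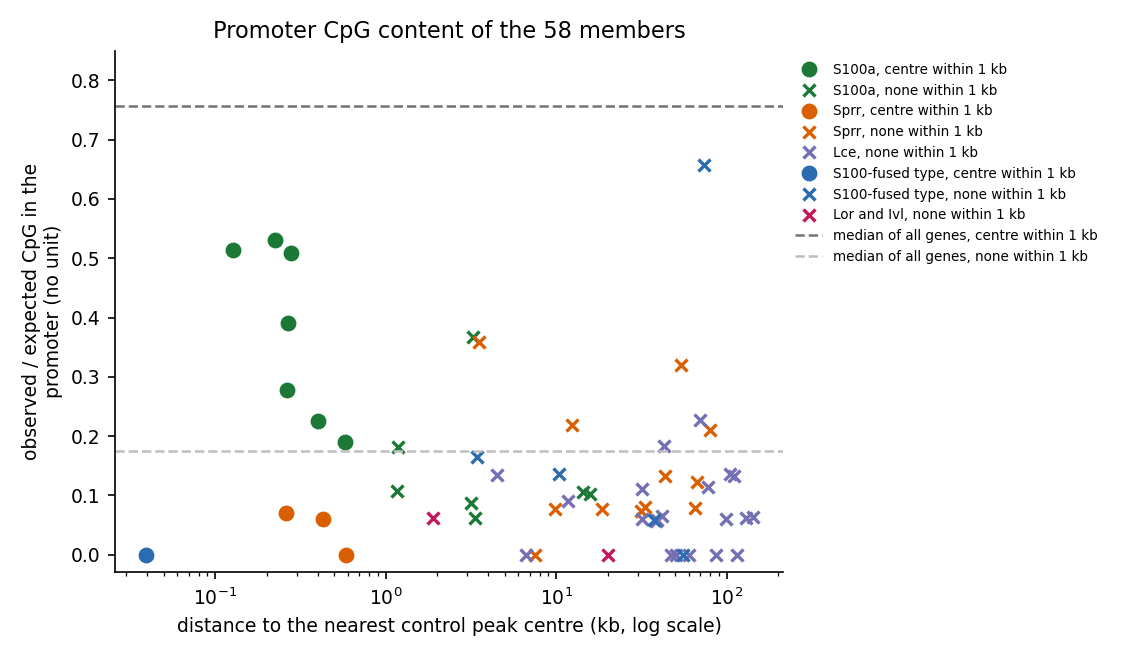
Observed over expected CpG in the promoter of each member against the distance in kb (log scale) from its start site to the nearest control peak, with circles for a peak centred within 1 kb and crosses for none. The open S100a circles lie between 0.190 and 0.530, the other open circles lie at 0.0699 or below, and dashed lines mark the medians of all genes with (0.756) and without (0.176) an open start site.

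A TATA box string was common in the complex. TATAAA stood on the gene's strand between 50 bases before and 10 after the start in 19 of 58 members, or 32.8% (22.1 to 45.6), beside 3.39% of all genes and 37 of 57 Krtap genes. It was present in 10 of 15 Sprr genes, in Lor and Ivl, in Crnn, Hrnr and Rptn, in S100a4 and S100a9, and in 2 of 21 Lce genes, Lce1d and Lce1m. Of these 19 genes only Sprr2a2, Sprr1a and Crnn had an open start site.

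Most Lce promoters held a related string. After the Lce1b sequence was read, ATAAAA was counted in the same window, and it was present in 18 of 21 Lce genes (85.7%, 65.4 to 95.02), 6 of 15 Sprr genes, 2 of 6 S100-fused type genes, 1 of the pair Lor and Ivl and 0 of 14 S100a genes, beside 2.99% of all genes. The strings overlap in TATAAAA, and either string stood in 35 of 58 members. Since ATAAAA was chosen from these promoters, its share is a description only.

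The AP-1 string TGANTCA, bound by the Fos and Jun proteins, was unevenly spread over the families. In the 300 bases from 250 before the start site to 50 after it, it was found in 16 of 58 promoters (27.6%, 17.8 to 40.2), beside 6.85% of all promoters. The 16 comprised 10 of 15 Sprr genes, Lor and Ivl, Crnn and Rptn, and S100a16 and S100a11, and 0 of the 21 Lce genes. Only 4 of them, S100a16, S100a11, Sprr1a and Crnn, had a control peak within 1 kb, and the other 12 had none. GCCNNNGGC was found in 6 of 58 promoters (10.3%, 4.83 to 20.8), beside 19.1% of all promoters, and the KLF string in 25.9% beside 55.8%. The median promoter GC content was 47% in the members and 55.7% in all genes, and its part in these shares was not tested. The promoters with GCCNNNGGC were those of S100a14, S100a8, S100a9, Lce3b, Lce1m and Flg, none of which was open. Many Sprr and Lce genes are recent duplicates, so these counts do not stand for independent sequences.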

How the data were processed

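Facial surface ectoderm was profiled by ATAC-seq in 2 control and 2 EDKO libraries at E11.5. The authors trimmed reads with NGmerge, aligned them with bowtie2 (mm10, --very-sensitive mode with -k 10) and ran Genrich on combined libraries in ATAC-seq mode, without PCR duplicates and chrM. The deposited −log10 p is that of the summit against the background of the call, unadjusted. The deposited scores are the area under a peak's −log10 p curve and 1000 times that area divided by the width, capped at 1000, and a summit offset is also deposited. All were used within their own list. Multi-mapping reads were kept, which affects duplicated genes. The lists hold no read counts, so no interval for depth is given, and no library could be left out.

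Genes and start sites came from GENCODE (release 21 of the mouse series, GRCm38). Of equally ranked principal transcripts by APPRIS, that with the lowest number gave the start. This was chosen after the members' values had been seen with the longest transcript instead, because 82.9% against 79.0% of 16539 genes then started within 100 bp of a RefSeq start. Of 53 members found in RefSeq, 48 did so. The members and lists were chosen with earlier results of these data known. Named are all members with an open start site or a nearby region, Flg, Lor, Ivl and the member farthest from a peak among those with none within 50 kb, the 8 peaks with the largest summit −log10 p, and, of the other lists, genes with a nearby region and up to 4 open ones in alphabetical order. Further names illustrate counts, and 1 gene of these lists is not reported here. Copy number is the median count of a peak's 31-base words over 21 chromosomes. Strings were matched exactly. Shares carry 95% Wilson intervals, and no p-value was computed. Alternatives varied the distances, start sites, area limit, overlap and string. Python 3.11.15, pandas 2.3.3, numba 0.67.0 and bedtools 2.31.1 were used. Scripts were tested on simulated intervals and sequences.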

Additional observations from a re-analysis of the deposited data

How the results depend on the processing

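For 7 results, 32 alternative values were computed, 24 planned and 8 added after the data were seen, and 26 stayed within 1.5 times a count or within the counting interval of a share. With the peak required to overlap the start site, 7 members were open instead of 11, and S100a3, Sprr1a, Sprr2a1 and Sprr2a2 were lost. Over the other settings between 8 and 14 were open, the lowest with an area limit that also removed the 3 Sprr genes, and no Lce gene was in any of the 8 settings. Distances of 0.5 kb and 2 kb gave 9 and 14, any annotated start gave 13, which added Sprr2a3 and S100a7a, and RefSeq starts gave 11 of 53. When peaks and regions needed an area under the −log10 p curve of 500 or more, the peaks near members fell from 64 to 38 (59.4%, beside 62.9% of all control peaks), the regions from 3 to 1, that near S100a11, the density from 35.7 to 21.2 per Mb (15.1 over the 21 chromosomes), and the share of summits with GCCNNNGGC from 10.9% to 2.63%. That share was 21.9% over whole peaks. No paired analysis was possible because each call pooled its libraries, and for the same reason no library was left out.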

Other observations

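The 17 other protein-coding genes between S100a1 and S100a10 had values in the range of the envelope genes. Besides having no open start site, 13 of them had a control peak within 50 kb, their median distance to the nearest peak was 20.97 kb, and none had an AP-2-dependent region within 50 kb. TATAAA stood near the start of 6 of them, and their median ratio of observed to expected CpG was 0.104. The nearest approach was at Crct1, a cysteine-rich gene of the Lce cluster, where a peak of 630 bp (chr3:93014241-93014870) with a summit −log10 p of 5.95 was centred 1.13 kb from the start and lay 48.6% in coding sequence. No test was made between these genes and the members.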
